A study of Mus musculus with 48 samples.

Results

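Transcripts of the chaperones of the endoplasmic reticulum were measured in the brains of mice deprived of sleep for 12 h. The group held 10 genes, namely Hspa5, Hsp90b1, Pdia4, Pdia6, Calr, Canx, Dnajb11, Sdf2l1, Manf and Creld2. It was read by every array probe whose RefSeq accession belonged to 1 of these genes, which gave 16 of the 41174 probes, while the whole array named 18883 genes. Hsp90b1 and Calr had 2 probes each, Pdia6 and Canx had 3 probes each, and the other 6 genes had 1 probe each. All 16 probes passed the filter on dim probes in both tissues. The samples were 48 arrays, 1 from frontal cortex and 1 from hypothalamus of each of 24 adult mice on a C57BL/6 background. Of these mice, 8 were homozygous for a human PER3 variable-number tandem-repeat with 5 repeats (Per3 5/5), 8 for the variant with 4 repeats (Per3 4/4), and 8 were wild type (WT). In the knock-in mice 1 exon of mouse Per3 had been replaced by its human counterpart, which carries the repeats, and the WT mice came from the same targeted line. Every mouse was sleep deprived before the tissue was taken, and mice of different genotypes were deprived side by side. There was no rested group, so a level is a level after sleep loss and only genotypes, tissues and mice were compared.

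Proteins that are secreted or inserted into membranes are folded in the endoplasmic reticulum, where chaperones bind unfolded chains, glycoproteins pass through the calreticulin and calnexin cycle, and protein disulfide isomerases form and rearrange disulfide bonds. When unfolded chains accumulate, the sensors IRE1, PERK and ATF6 are released from the chaperone BiP, the product of Hspa5, and start the unfolded protein response, in which the transcription factors ATF6 and XBP1 raise the transcription of the chaperone genes. BiP is among the transcripts that rise in the rodent brain with prolonged wakefulness, and for that reason it is often used as a molecular marker of sleep loss.

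The element through which ATF6 acts at these genes is short enough to be shown. The endoplasmic reticulum stress response element (ERSE) was searched as CCAAT and CCACG with any 9 bases between them, on both strands of a window from 250 bases before to 50 bases after each RefSeq transcription start (GRCm38.p6). It matched in 39 of 32851 promoters (0.119%) and in 6 of the 9 promoters of these genes that could be looked up, which were all but that of Manf. The related ERSE-II was searched as ATTGG and CCACG with any 1 base between them and matched in 12 promoters (0.0365%), among them that of Dnajb11. The third element, TGACGTGG, matched in 222 promoters (0.676%) and in 0 of the 9. No element was matched in the windows of Pdia4 and Sdf2l1. The matches are printed 5′ to 3′ with 3 flanking bases on each side and the fixed letters of the element in capitals, because they are the sequence that most of these genes have in common. Since ATF6 is known to act at these genes through this element, the matches are a description and not a test.
Hspa5, chr2:34772022-34772046, plus strand: tcaCCAATcggaggcctCCACGacg
Hsp90b1, chr10:86705635-86705659, minus strand: agcCCAATcgcaaggagCCACGctt
Hsp90b1, chr10:86705530-86705554, plus strand: tcaCCAATcgtgcctcaCCACGcac
Pdia6, chr12:17266488-17266512, plus strand: agaCCAATgaaaggcggCCACGgcg
Calr, chr8:84847072-84847096, plus strand: gggCCAATgagggtcgaCCACGcgt
Canx, chr11:50325797-50325821, minus strand: tgaCCAATcaccacgctCCACGaag
Creld2, chr15:88819517-88819541, minus strand: ggaCCAATtgaggctcgCCACGaga
Dnajb11, chr16:22857849-22857865, plus strand: gcgATTGGcCCACGcct

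The ERSE of Hspa5 lay 46 bases before the start and in the direction of the gene, as did those of Pdia6 (79 bases), Canx (126 bases) and the farther element of Hsp90b1 (193 bases). The nearer element of Hsp90b1 (88 bases) and those of Creld2 and Calr (143 bases for the latter) ran opposite to the gene. The ERSE-II of Dnajb11 lay 7 bases after the start. These matches describe the letters of the window, and no binding was measured.

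Levels are given on a log2 scale relative to the 75th percentile of the same array, so that 0 is a probe as bright as that percentile, and a probe is compared with itself only. Across probes, the correlation of replicate arrays was between 0.968 and 0.989. WT arrays were brighter, with a median 75th percentile of 1300 intensity units in cortex and 1522 in hypothalamus, against 894 and 1045 in Per3 5/5 and 753 and 924 in Per3 4/4 mice. The arrays were scanned on 3 days that the genotypes shared only in part (Per3 5/5 on days 1 and 3, Per3 4/4 mostly on days 1 and 2, WT on days 2 and 3). In hypothalamus 3 arrays stood apart, namely WT replicate 3, and WT replicate 8 and Per3 5/5 replicate 8 with pituitary transcripts (Gh 8.09 and 2.10, against -5.60 to -3.56 in the other WT mice and -5.66 to -0.32 in the other Per3 5/5 mice). The tissues matched their labels, with 8 of 8 cortex markers lower and 10 of 10 hypothalamus markers higher in WT hypothalamus than in WT cortex. The Per3 probe was at -3.43 ± 0.26 in WT, -2.73 ± 0.20 in Per3 5/5 and -3.02 ± 0.37 in Per3 4/4 cortex (mean ± SD, n = 8 each), and where it lies relative to the replaced exon is not given, so it does not check the genotype.

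The first question was how the chaperones differed between the tissues of the same mouse. Most were higher in hypothalamus than in cortex in all genotypes, whereas Calr and Dnajb11 were lower there. In WT mice limma called 16 of 16 probes at an adjusted p under 0.05, 13 higher and 3 lower in hypothalamus. Many probes differ between these tissues, since 59.5% of all 31228 probes tested were called in WT mice (31.8% higher and 27.7% lower). In Per3 4/4 mice 14 probes were called, 12 higher and 2 lower (59.0% of all probes were called, 31.1% higher and 27.9% lower), and in Per3 5/5 mice 12 were called, 11 higher and 1 lower (58.6% of all probes, 29.4% higher and 29.1% lower). The median log2 difference of the 16 probes was 0.39 in WT mice, 0.32 in Per3 4/4 mice and 0.30 in Per3 5/5 mice, against 0.03, 0.02 and -0.02 over all probes. In bulk tissue, fewer cells of a type and less RNA per cell cannot be told apart, and the markers of several cell types differed between the same samples. In WT hypothalamus 7 of 8 oligodendrocyte markers (median difference 0.59), 7 of 7 choroid plexus markers (2.09) and 4 of 7 pituitary markers (3.05) were higher than in cortex, and their part in the differences of the chaperones was not tested.

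**Figure D1:**
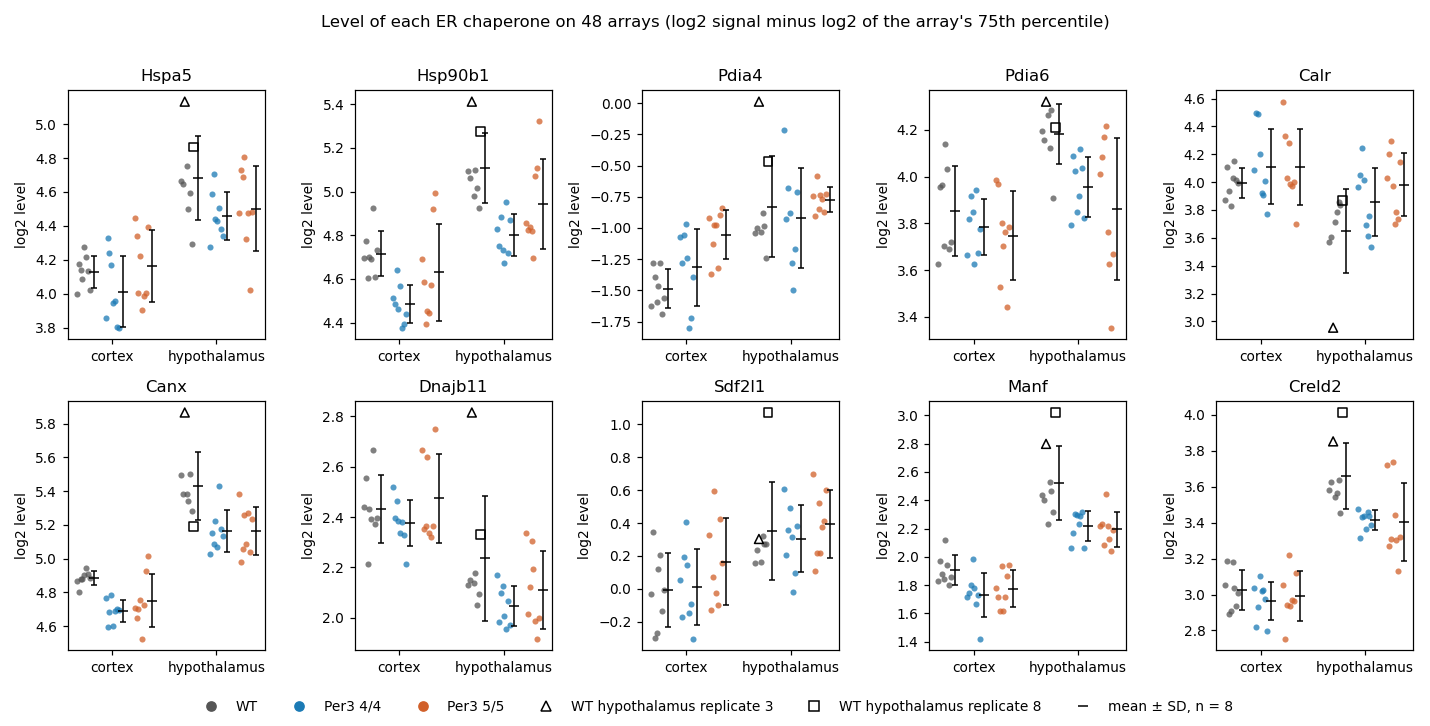
Level of each of the 10 chaperone genes (1 probe per gene, log2 relative to the 75th percentile of the array) in every mouse, by tissue and genotype, with points for arrays, bars for the mean ± SD (n = 8 each), a triangle for WT hypothalamus replicate 3 and a square for WT hypothalamus replicate 8. Hspa5, Manf and Creld2 lie higher in hypothalamus in every genotype, Dnajb11 and Calr lie lower there, and the genotypes overlap in nearly all panels.

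Hspa5 encodes BiP, the ER member of the Hsp70 family. In WT cortex its level ran from 4.00 to 4.28 with a median of 4.14, and in WT hypothalamus from 4.29 to 5.13 with a median of 4.66. In Per3 4/4 mice it ran from 3.80 to 4.33 (median 3.95) in cortex and from 4.28 to 4.71 (median 4.43) in hypothalamus, and in Per3 5/5 mice from 3.91 to 4.45 (median 4.11) and from 4.02 to 4.81 (median 4.48). The tissues did not overlap in WT mice and overlapped in both knock-ins, but within a mouse hypothalamus was higher in 8 of 8 mice of each genotype. The difference was 0.55 ± 0.08 in WT mice (SE, adjusted p 4.69e-06 by limma), 0.45 ± 0.08 in Per3 4/4 mice (adjusted p 7.69e-05) and 0.34 ± 0.08 in Per3 5/5 mice (adjusted p 0.00145). The 6 group means followed the tissue before the genotype. They were 4.68 ± 0.25 in WT, 4.50 ± 0.25 in Per3 5/5 and 4.46 ± 0.14 in Per3 4/4 hypothalamus, then 4.16 ± 0.21 in Per3 5/5, 4.13 ± 0.09 in WT and 4.01 ± 0.21 in Per3 4/4 cortex (SD, n = 8 each). Neighbours in this order within a tissue lay closer than the larger of their SDs.

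The co-chaperones of BiP moved in opposite directions. Dnajb11 (ERdj3), the J-domain protein that delivers unfolded chains to BiP, had a median of 2.41 in WT cortex (2.21 to 2.67) and 2.14 in WT hypothalamus (2.05 to 2.82), where the highest value was that of replicate 3. Its difference was -0.20 ± 0.08 in WT mice (adjusted p 0.0487, lower in 7 of 8 mice), -0.33 ± 0.08 in Per3 4/4 mice (adjusted p 0.00165, 8 of 8) and -0.36 ± 0.08 in Per3 5/5 mice (adjusted p 0.00069, 8 of 8). Without WT replicate 3 the WT difference was -0.31 (adjusted p 0.000116). Sdf2l1, a partner of the ERdj3 complex, had medians of -0.02 in WT cortex and 0.27 in WT hypothalamus, and the ranges (-0.30 to 0.35 and 0.15 to 1.07) overlapped. It was higher by 0.36 ± 0.10 in WT mice (adjusted p 0.00253), 0.30 in Per3 4/4 mice (adjusted p 0.0108) and 0.23 in Per3 5/5 mice (adjusted p 0.0452). This was the 1 call among the WT probes that was lost when the 3 arrays that stood apart were left out (0.20, adjusted p 0.0567).

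Hsp90b1 encodes GRP94, the ER member of the Hsp90 family, and both of its probes were higher in hypothalamus in all genotypes. At A_52_P624149 the level ran from 4.60 to 4.93 (median 4.70) in WT cortex and from 4.92 to 5.41 (median 5.08) in WT hypothalamus, with ranges that overlapped narrowly. The difference was 0.39 ± 0.06 in WT mice (adjusted p 7.42e-06), 0.32 in Per3 4/4 mice and 0.31 in Per3 5/5 mice, higher in 8 of 8 mice each time. A_52_P590546 gave 0.39, 0.33 and 0.21 in the same order, all called.

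The lectin chaperones split. Canx, the membrane-bound calnexin, was higher in hypothalamus at all 3 probes and in all genotypes (0.28 to 0.55, all called). At A_52_P337679 it ran from 4.80 to 4.95 in WT cortex and from 5.19 to 5.87 in WT hypothalamus, without overlap, a difference of 0.55 ± 0.07 (adjusted p 1.93e-07). Calr, its soluble counterpart calreticulin, which also stores calcium, was lower in hypothalamus. At A_51_P416419 it had a median of 4.01 in WT cortex (3.83 to 4.15) and 3.75 in WT hypothalamus (2.95 to 3.87). The ranges overlapped narrowly, and Calr was lower in hypothalamus in 8 of 8 WT mice (-0.34 ± 0.09, adjusted p 0.00216), 8 of 8 Per3 4/4 mice (-0.25, adjusted p 0.0199) and 6 of 8 Per3 5/5 mice (-0.13, adjusted p 0.236, not called). The other Calr probe, A_52_P672212, was called in WT mice only (-0.35, adjusted p 0.0144), and not when WT replicate 3 was left out (-0.21, adjusted p 0.0746).

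Of the disulfide isomerases, Pdia4 was higher in hypothalamus by 0.66 ± 0.11 in WT mice (adjusted p 1.09e-05), 0.40 in Per3 4/4 mice (adjusted p 0.0028) and 0.28 in Per3 5/5 mice (adjusted p 0.0276). Its WT levels lay between -1.69 and -1.28 in cortex and between -1.24 and 0.01 in hypothalamus, with no overlap. Pdia6, which also acts on the sensor IRE1, gave different sizes at its 3 probes. A_51_P297968 was higher by 0.62 ± 0.06 in WT mice, 0.61 in Per3 4/4 mice and 0.52 in Per3 5/5 mice (adjusted p 9.10e-09, 1.10e-08 and 1.94e-07), and 8 of 8 mice of each genotype were higher. A_52_P339495 gave 0.37, 0.27 and 0.24, the last not called (adjusted p 0.0502), and A_52_P70810 gave 0.33, 0.17 and 0.11, called in WT mice only.

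Manf and Creld2 encode small proteins that leave the ER under stress, and Manf is also known as a neurotrophic factor. Its level ran from 1.80 to 2.12 in WT cortex and from 2.23 to 3.02 in WT hypothalamus, from 1.42 to 1.98 and from 2.06 to 2.31 in Per3 4/4 mice, and from 1.62 to 1.94 and from 2.04 to 2.45 in Per3 5/5 mice. The tissues did not overlap in any genotype, and the differences were 0.62 ± 0.07 in WT mice (adjusted p 5.92e-08), 0.49 in Per3 4/4 mice and 0.42 in Per3 5/5 mice. Creld2 was higher by 0.63 ± 0.07 in WT mice (adjusted p 8.95e-09), 0.45 in Per3 4/4 mice (adjusted p 2.14e-06) and 0.41 in Per3 5/5 mice (adjusted p 8.23e-06), in 8 of 8 mice of each genotype. Without the 3 arrays that stood apart the WT differences of Manf and Creld2 were 0.48 and 0.52, that of Hspa5 was 0.43 and that of Pdia4 was 0.46, all called.

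**Figure D2:**
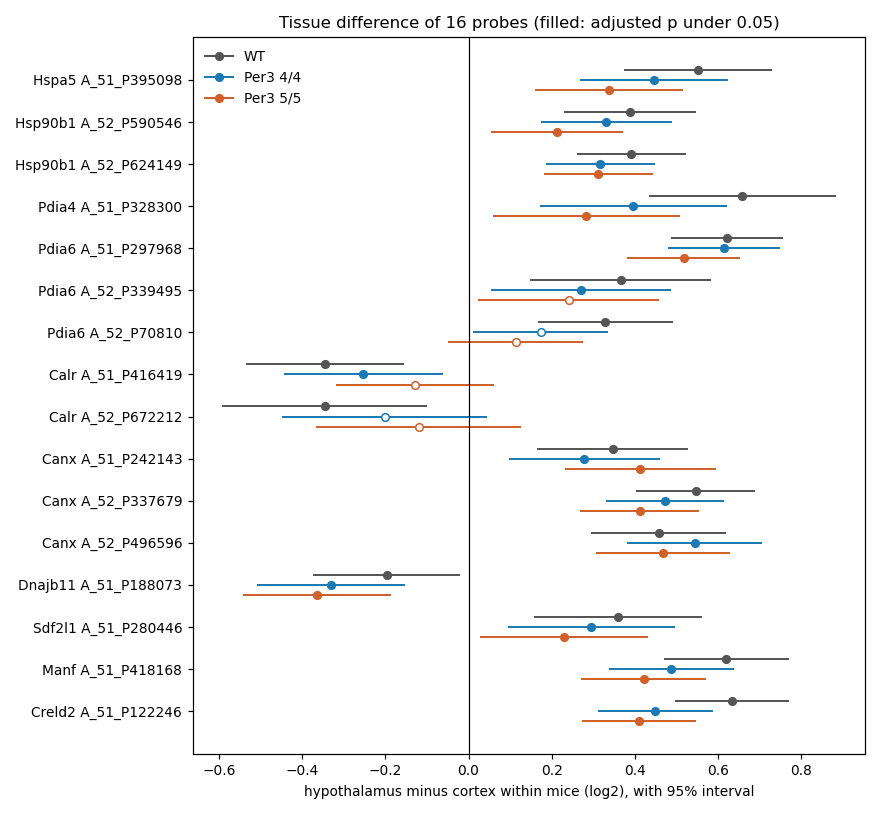
Log2 difference of hypothalamus minus cortex within mice for the 16 chaperone probes by genotype (n = 8 mice each), with 95% confidence intervals by limma and filled symbols where the adjusted p was under 0.05. All probes but those of Calr and Dnajb11 lie to the right of 0, and for most of them the WT point lies farthest from 0.

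The size of the tissue difference was larger in WT than in Per3 5/5 mice at most of these probes, but the difference between genotypes was not called. limma called 0 of 16 probes for the interaction of tissue with Per3 5/5 against WT, with a lowest adjusted p of 0.791, and 2 probes had an unadjusted p under 0.05 (3 of 31228 probes, 0.00961%, were called). The estimates ran from -0.37 at Pdia4 to 0.23, and their 95% intervals reached from -0.69 to 0.57. For Per3 4/4 against WT 0 probes were called, 0 had an unadjusted p under 0.05 and the lowest adjusted p was 0.925 (0.00320% of all probes were called). For Per3 5/5 against Per3 4/4 no probe of the array was called.

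The other genes of the pathway, taken from gene lists with 1 probe per gene, did not all follow the chaperones. Of 23 other ER folding genes, 15 were higher and 1 was lower in WT hypothalamus than in cortex (59.5% of all probes were called), with a median difference of 0.42, beside 8 higher and 2 lower of the 10 chaperone genes (median 0.47). Of 12 genes of ER-associated degradation, through which misfolded proteins are removed, 7 were higher and 2 lower (median 0.16). Of 9 sensors and transcription factors of the unfolded protein response 3 were higher and 5 lower (median -0.21). Of 10 targets of the PERK and ATF4 branch 3 were higher and 2 lower (median 0.14), and of 8 cytosolic heat shock chaperones 5 were higher and 0 lower (median 0.25). The knock-in mice gave similar counts for the folding genes (16 higher and 2 lower in Per3 4/4, 17 and 1 in Per3 5/5) and for the sensors and factors (2 higher and 5 lower in each).

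The next comparison, of each knock-in with WT, asked whether the chaperone levels after sleep loss depended on the human repeat region. Few probes were called, none for Dnajb11 and Sdf2l1. The share called was near that of all probes in Per3 5/5 cortex. It was higher in the other 3 comparisons, but by a few probes only, and in each some called probes were of the same gene. Without WT hypothalamus replicate 3 the share in Per3 4/4 hypothalamus was below that of all probes. Whether the chaperones were called more often than other probes was not tested. In cortex limma called 2 of 16 probes in Per3 5/5 (12.4% of 29715 probes were called, 8.44% higher and 3.91% lower) and 5 of 16 in Per3 4/4 mice (22.5% of all probes, 13.4% higher and 9.14% lower). In hypothalamus it called 6 of 16 in Per3 5/5 (18.8% of 30735 probes, 10.3% higher and 8.55% lower) and 5 of 16 in Per3 4/4 mice (15.1% of all probes, 8.24% higher and 6.81% lower). Both knock-ins were compared with the same WT arrays, so these counts are not independent of each other. The median difference of the 16 probes was 0.00 and -0.06 in cortex (Per3 5/5 and Per3 4/4) and -0.17 and -0.18 in hypothalamus, against 0.06, 0.02, 0.03 and 0.02 over all probes.

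Hspa5 itself was called in none of these comparisons. Its difference from WT was 0.03 (95% interval -0.16 to 0.22) in Per3 5/5 and -0.12 (-0.31 to 0.07) in Per3 4/4 cortex. In hypothalamus it was -0.18 (-0.41 to 0.05, adjusted p 0.253) and -0.22 (-0.45 to 0.01, adjusted p 0.163). Blocked on scan day, Hspa5 in Per3 4/4 mice was at -0.23 in cortex (adjusted p 0.117) and -0.32 in hypothalamus (-0.55 to -0.09, adjusted p 0.132).

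Canx had the most calls, but with 3 probes it was also tested more often than most of these genes, and 1 probe was never called. In cortex A_52_P496596 ran from 3.30 to 3.52 (median 3.46) in WT, from 2.93 to 3.27 (median 3.11) in Per3 5/5 and from 3.03 to 3.30 (median 3.20) in Per3 4/4 mice. All 8 Per3 5/5 mice and 7 of 8 Per3 4/4 mice lay below every WT mouse, and the differences were -0.33 ± 0.06 (adjusted p 0.00402) and -0.25 ± 0.06 (adjusted p 0.00731). Groups that did not overlap occurred at 1.14% of all probes for Per3 5/5 and 6.70% for Per3 4/4. A_52_P337679 was lower in Per3 4/4 cortex (-0.19 ± 0.06, adjusted p 0.0238), with 8 of 8 mice (4.60 to 4.78) below every WT mouse (4.80 to 4.95). In hypothalamus A_52_P337679 was lower in both knock-ins (-0.27, adjusted p 0.0341 in Per3 5/5 and 0.0397 in Per3 4/4) and A_52_P496596 in Per3 5/5 (-0.32 ± 0.10, adjusted p 0.0371), with overlapping groups. The third probe, A_51_P242143, was called in neither tissue and lay above WT in all 4 comparisons (0.21 and 0.15 in cortex, 0.28 and 0.09 in hypothalamus, Per3 5/5 first). The 3 Canx probes did not vary together between mice either, with r between -0.41 and 0.10 within a tissue (24 mice, genotype means removed), whereas those of Pdia6 (0.55 to 0.90), Calr (0.76 and 0.89) and Hsp90b1 (0.56 and 0.77) did.

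Hsp90b1 was lower in Per3 4/4 mice at both probes and in both tissues. In cortex A_52_P590546 ran from 4.21 to 4.62 in Per3 4/4 (median 4.31) and from 4.50 to 4.75 in WT mice (median 4.64), and 7 of 8 Per3 4/4 mice lay below every WT mouse. The difference was -0.29 ± 0.09 (adjusted p 0.0211) at this probe and -0.23 ± 0.08 (adjusted p 0.0391) at A_52_P624149. In hypothalamus they were -0.35 ± 0.12 (adjusted p 0.0473) and -0.31 ± 0.09 (adjusted p 0.0233). In Per3 5/5 mice Hsp90b1 was not called in either tissue.

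Pdia4 was higher in Per3 5/5 than in WT cortex by 0.43 ± 0.11 (adjusted p 0.0204). It ran from -1.37 to -0.84 (median -0.98) in Per3 5/5, from -1.80 to -0.97 (median -1.26) in Per3 4/4 and from -1.69 to -1.28 (median -1.51) in WT mice, and 6 of 8 Per3 5/5 mice lay above every WT mouse. Of the Pdia6 probes, A_52_P339495 was higher in Per3 4/4 cortex (0.44 ± 0.15, adjusted p 0.0384, 7 of 8 mice above every WT mouse, but 0.24 with scan day as a block, adjusted p 0.301), and A_52_P70810 was lower in Per3 5/5 hypothalamus (-0.32 ± 0.11, adjusted p 0.0361). In each of these comparisons the other 2 Pdia6 probes were not called.

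In hypothalamus Manf was lower in both knock-ins. It ran from 2.23 to 3.02 (median 2.45) in WT, from 2.04 to 2.45 (median 2.20) in Per3 5/5 and from 2.06 to 2.31 (median 2.26) in Per3 4/4 mice. The groups overlapped, with 6 of 8 Per3 5/5 and 4 of 8 Per3 4/4 mice below every WT mouse, and the differences were -0.33 ± 0.09 (adjusted p 0.0188) and -0.31 ± 0.09 (adjusted p 0.0317). Creld2 was lower in Per3 5/5 hypothalamus by -0.26 ± 0.09 (adjusted p 0.0477), with 6 of 8 mice below every WT mouse. Calr was the 1 gene called higher there, at A_52_P672212 (0.50 ± 0.16, adjusted p 0.0303 in Per3 5/5 and 0.46 ± 0.16, adjusted p 0.0491 in Per3 4/4). The WT range of this probe, -1.11 to 0.34, owed its lower end to replicate 3, and the other WT mice lay at -0.09 or above.

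These calls depended on 3 arrays, 1 of which (WT replicate 3) stood apart by its chaperone values, and on the day of scanning. Without the 3 hypothalamus arrays that stood apart, 3 probes were called in Per3 5/5 (11.0% of all probes) (Calr A_52_P672212 0.39, Canx A_52_P337679 -0.24 and A_52_P496596 -0.41) and 1 in Per3 4/4 (8.07% of all probes), Hsp90b1 A_52_P624149 (-0.23). Manf was then at -0.20 (adjusted p 0.0796) and -0.18 (adjusted p 0.107) and Creld2 in Per3 5/5 at -0.15 (adjusted p 0.243). Leaving out WT replicate 3 alone brought the counts from 6 to 3 (16.3% of all probes) and from 5 to 1 (12.3%). With scan day as a block, Canx A_52_P496596 was the 1 cortex probe that passed, both for Per3 5/5 (-0.33, adjusted p 0.0432, beside 0.986% of all probes) and for Per3 4/4 (-0.23, adjusted p 0.0401, beside 7.72%). In hypothalamus 0 probes were then called (2.10% and 0.745% of all probes), with Manf at -0.35 (adjusted p 0.0952) and -0.33 (adjusted p 0.113) and Calr A_52_P672212 at 0.21 (adjusted p 0.475) and 0.27 (adjusted p 0.328). Pdia4 in Per3 5/5 cortex was at 0.28 (adjusted p 0.218). Within 1 scan day alone (4 against 3 and 3 against 5 mice) hardly any probe of the array was called (0.00337% for Per3 5/5 and 0.552% for Per3 4/4 in cortex, 0.00325% and 0.0163% in hypothalamus), so that the 0 of 16 chaperone probes called there says nothing about them. Their values in Per3 5/5 were -0.36 for Canx A_52_P496596 and 0.50 for Pdia4 in cortex and 0.05 for Calr A_52_P672212 in hypothalamus.

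**Figure D3:**
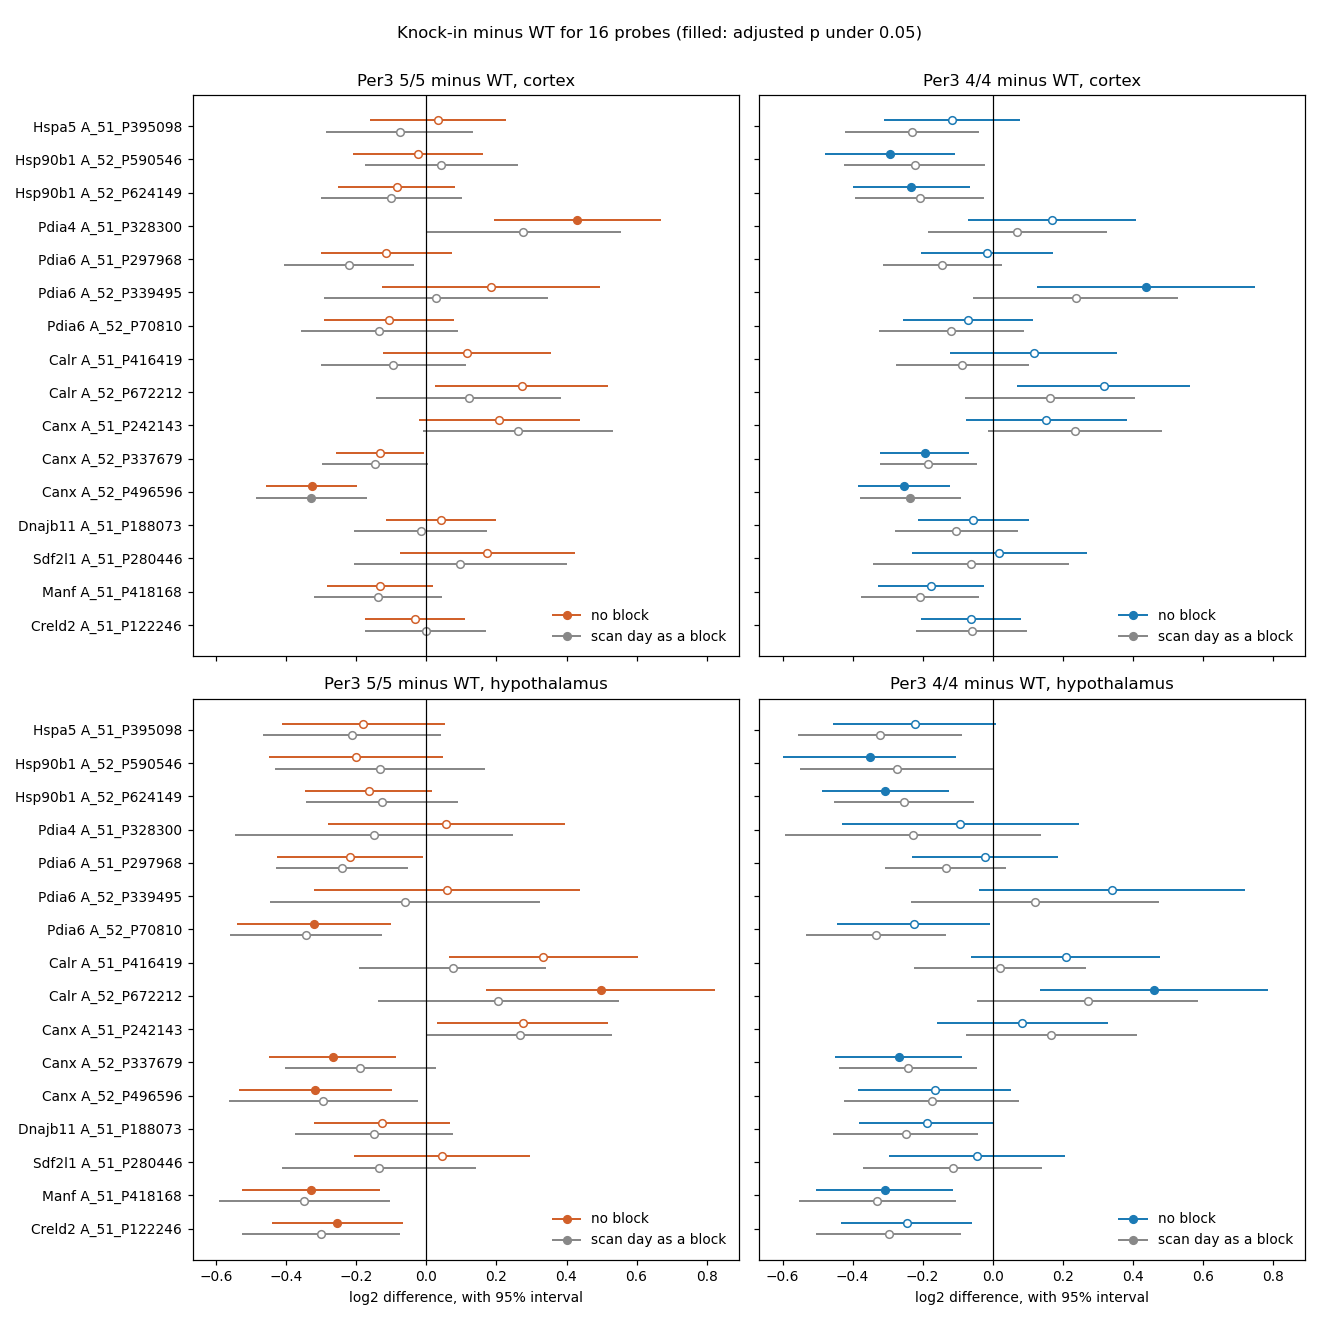
Log2 difference from WT at the 16 chaperone probes in 4 panels (Per3 5/5 and Per3 4/4 in cortex and hypothalamus, n = 8 mice per genotype), without and with scan day as a block, with 95% confidence intervals by limma and filled symbols where the adjusted p was under 0.05. With the block 1 probe of Canx is filled in each cortex panel and 0 in the hypothalamus panels.

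The direction of each call did not depend on the scaling, but the split of the calls did. With arrays centred on their median 0 probes were called higher and 2, 4, 5 and 4 lower (Per3 5/5 and Per3 4/4 in cortex, then in hypothalamus), against 1 higher and 1, 4, 5 and 4 lower with the 75th percentile. Markers of other cells moved with genotype in the same samples. In hypothalamus, of the oligodendrocyte markers 6 of 8 were higher in Per3 4/4 (median difference 0.43) and 3 of 8 in Per3 5/5 mice (0.31), and the log2 of their summed level ran from 7.55 to 8.10 in WT, 7.84 to 8.17 in Per3 5/5 and 7.93 to 8.42 in Per3 4/4 mice. Of the astrocyte markers 3 of 8 were higher in each knock-in (0.28 in Per3 5/5 and 0.32 in Per3 4/4), with sums of 7.57 to 7.92, 7.93 to 8.32 and 7.81 to 8.28 in the same order. Of the pituitary markers 2 of 7 were lower in Per3 5/5 mice and the medians were -0.78 and -1.22, with sums of 0.49 to 9.56 in WT, -0.11 to 5.47 in Per3 5/5 and 0.83 to 2.32 in Per3 4/4 mice. In cortex 1 of 8 astrocyte markers was higher in Per3 5/5 and 2 of 8 in Per3 4/4 mice, with sums of 7.61 to 8.10 in WT, 7.90 to 8.25 in Per3 5/5 and 7.82 to 8.47 in Per3 4/4 mice. Of the hypothalamus markers 2 of the 8 tested were higher in Per3 5/5 cortex, where the sum reached 2.53 against at most 1.22 in WT mice, and the pituitary sum reached 2.69 there against at most -0.74 with 0 of 5 markers called. Their part in the differences of the chaperones was not tested.

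Between the knock-ins no chaperone probe was called in either tissue. limma called 0 of 16 probes in cortex (lowest adjusted p 0.285, 2 with an unadjusted p under 0.05) and 0 of 16 in hypothalamus (lowest adjusted p 0.321, 0 with an unadjusted p under 0.05). No probe of the array was called in this comparison (0% in each tissue), while 4656 and 4983 had an unadjusted p under 0.05. The 95% intervals of the 16 differences lay between -0.56 and 0.50 in cortex and between -0.66 and 0.48 in hypothalamus, so that differences of that size were not excluded by these data.

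Among the other ER folding genes the calls against WT were also mostly of lower levels in hypothalamus. The counts of this and the following lists stand beside those of all probes, of which 12.4% (Per3 5/5) and 22.5% (Per3 4/4) were called in cortex and 18.8% and 15.1% in hypothalamus. Of the 27 differences named from these lists by their size, 5 were called with scan day as a block and 22 were not. Of the 23 other ER folding genes 2 were higher and 6 lower in Per3 5/5 and 2 higher and 5 lower in Per3 4/4 hypothalamus (medians -0.17 and -0.15), and 0 and 1, and 2 and 4, in cortex (medians -0.07 and -0.08). Hyou1, the large Hsp70-related partner of BiP, was lower in Per3 4/4 cortex by -0.55 (adjusted p 0.00289) and hypothalamus by -0.62 (adjusted p 0.00499), and with scan day as a block it was called in cortex (-0.45, adjusted p 0.0209) and not in hypothalamus (-0.51, adjusted p 0.0518). Serpinh1, the collagen chaperone, was lower in Per3 4/4 mice in both tissues (-0.50 and -0.54) and in Per3 5/5 hypothalamus (-0.46). Hspa13 was lower in Per3 5/5 hypothalamus (-0.45, adjusted p 0.00236), and Dnajb9 (ERdj4) in Per3 5/5 cortex (-0.26, adjusted p 0.0334).

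Of the 12 genes of ER-associated degradation 0 were higher and 3 lower in Per3 5/5 and 0 higher and 2 lower in Per3 4/4 hypothalamus, and 1 and 2, and 1 and 3, in cortex. Herpud1 was lower in Per3 5/5 cortex (-0.34, adjusted p 0.0111) and hypothalamus (-0.44, adjusted p 0.00488). Edem3, a mannosidase that marks glycoproteins for removal, was lower in Per3 4/4 mice in both tissues (-0.49 and -0.48) and in Per3 5/5 hypothalamus (-0.37), and was called with scan day as a block in Per3 4/4 cortex alone (-0.35, adjusted p 0.0299, against -0.22 in Per3 5/5 hypothalamus, adjusted p 0.307). Edem2 was higher in cortex in both knock-ins (0.37 in Per3 5/5 and 0.41 in Per3 4/4), but not called with scan day as a block (0.19, adjusted p 0.272, and 0.22, adjusted p 0.146). Sel1l, the adaptor of the HRD1 ligase, was lower in Per3 4/4 hypothalamus (-0.36, adjusted p 0.00487) and was called there with scan day as a block (-0.32, adjusted p 0.0435).

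Of the 9 sensors and transcription factors, 2 were higher and 0 lower in Per3 5/5 and 2 higher and 1 lower in Per3 4/4 cortex, and 1 was higher and 0 lower in each knock-in in hypothalamus. Ddit3 (CHOP), the transcription factor induced through PERK, was called higher in cortex in both knock-ins (0.27 in Per3 5/5 and 0.39 in Per3 4/4) and hypothalamus (0.31 and 0.28). It remained called with scan day as a block in Per3 4/4 cortex (0.27, adjusted p 0.0185) and not in the other 3 comparisons (0.18 to 0.28, adjusted p 0.0828 to 0.170). In cortex Ern1, which encodes IRE1, was higher in Per3 5/5 (0.36, adjusted p 0.0322) and Atf6b in Per3 4/4 mice (0.27, adjusted p 0.0465, but 0.11 with scan day as a block, adjusted p 0.426), while Eif2ak3, which encodes PERK, was the 1 gene lower (-0.25 in Per3 4/4, adjusted p 0.0342; named after its value was seen). Of the 10 targets of PERK and ATF4, 1 was higher and 0 lower in Per3 5/5 and 1 higher and 1 lower in Per3 4/4 cortex, and 0 and 0, and 1 and 0, in hypothalamus. Ppp1r15a (GADD34) was higher in cortex in Per3 5/5 (0.54, adjusted p 0.0202) and Per3 4/4 mice (0.71, adjusted p 0.00256, and the latter called with scan day as a block, 0.59), Ddit4 was lower in Per3 4/4 cortex (-0.31) and Psat1 was higher in Per3 4/4 hypothalamus (0.25). Of the 8 cytosolic chaperones Hspa1a alone was called (-0.36 and -0.34 in Per3 4/4 cortex and hypothalamus).

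The last question was whether mice with more Hspa5 also had more of the other chaperones, with the mean of each genotype removed (24 mice, 15 relations per tissue). The slopes called were those of 2 of the 3 Pdia6 probes. In cortex limma called a slope on Hspa5 at 1 of 15 probes, Pdia6 A_51_P297968 (slope 0.80, adjusted p 0.0305), beside 0.431% of all 29714 other probes (0.0740% rose and 0.357% fell with Hspa5). In hypothalamus it called 2 of 15, Pdia6 A_52_P70810 (0.74, adjusted p 0.00486) and A_51_P297968 (0.67, adjusted p 0.0063), beside 13.7% of 30734 probes (4.59% rose and 9.12% fell with Hspa5). The cortex call was lost with quantile normalization (adjusted p 0.0789), with scan day as a covariate (adjusted p 0.194) and without the 2 mice farthest from the median Hspa5 level (adjusted p 0.265), and in hypothalamus A_52_P70810 alone was called with scan day (adjusted p 0.039) or without 2 mice (adjusted p 0.0464). With normexp background correction no Pdia6 probe was called, and the slopes called in both tissues were those of Canx A_52_P337679 (0.51 in each) and Manf (0.35 and 0.44). Over all other probes, 1122 of 29714 in cortex and 11875 of 30734 in hypothalamus then had a slope called.

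At Pdia6 A_51_P297968 the correlation with Hspa5 in cortex was r = 0.83 and rho = 0.86 (permutation p 2e-05, two-sided, 100000 resamples within genotype), the third highest r among 29515 probes that were tested. It was 0.75 with scan day means removed as well, and 0.65, 0.82 and 0.59 within days 1, 2 and 3 (8 mice each). Here and below, r within days was taken from levels with genotype means not removed. The r was 0.79 without the 2 mice farthest from the median Hspa5 level, and 0.55 with normexp. In hypothalamus the same probe gave r = 0.77 and rho = 0.71 (permutation p 4e-05), 0.67 with scan day removed, 0.65, 0.77 and 0.73 within days, 0.67 without 2 mice and 0.38 with normexp. Pdia6 A_52_P70810 gave r = 0.66 and rho = 0.65 in cortex (permutation p 0.0003) and r = 0.79 and rho = 0.70 in hypothalamus (permutation p 1e-05, the smallest the resampling can give). In hypothalamus its r was 0.70 with scan day removed, 0.90, 0.87 and 0.78 within days, 0.74 without 2 mice and 0.42 with normexp. The third probe of the gene, A_52_P339495, gave 0.39 in cortex (rho 0.43, permutation p 0.106) and 0.10 there with scan day removed, and 0.45 in hypothalamus (rho 0.40, permutation p 0.0549), less than Manf or Dnajb11 in either tissue.

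**Figure D4:**
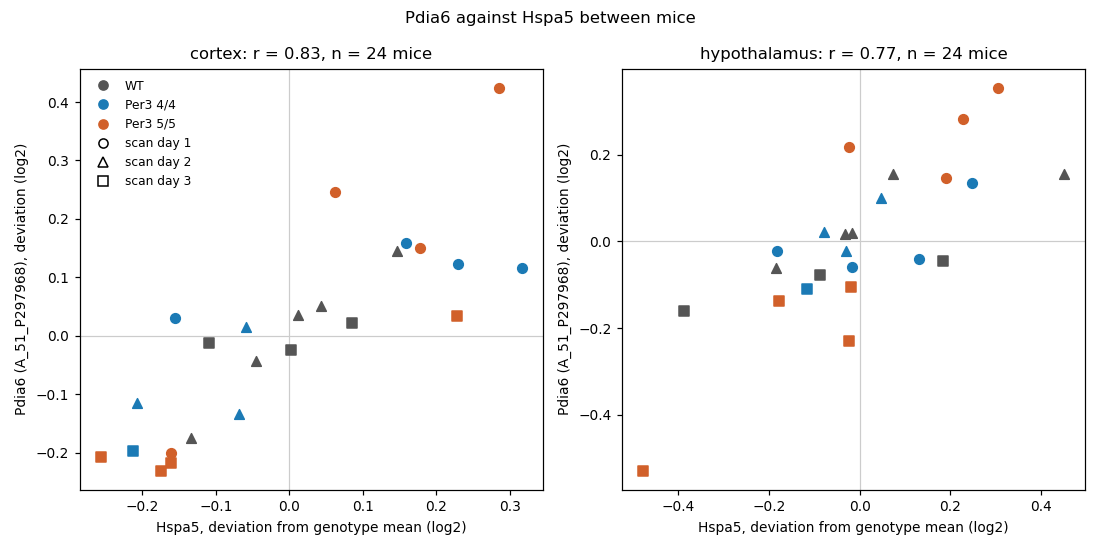
Level of Pdia6 (probe A_51_P297968) against that of Hspa5 in cortex and hypothalamus, each as the deviation from the genotype mean (log2 units), with 1 point per mouse (24 per panel), colours for genotype and marker shapes for scan day. Points rise from lower left to upper right in both panels (r = 0.83 and 0.77).

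Of the other chaperones, Manf correlated with Hspa5 at r = 0.57 and rho = 0.57 in cortex (permutation p 0.00812) and at r = 0.58 and rho = 0.55 in hypothalamus (permutation p 0.00742), and at 0.56 and 0.63 with scan day removed. In the main fit limma called its slope in neither tissue. With normexp it was called in both (r 0.69 and 0.71), and with arrays centred on their median r was 0.80 and 0.76. Calr A_51_P416419 correlated in cortex (r = 0.66, rho = 0.66, permutation p 0.00383), but less with scan day removed (0.44). Within days 1 to 3, with genotype means not removed, its r was 0.88, 0.30 and -0.06. In hypothalamus r was 0.03 (rho 0.28). Dnajb11 gave r = 0.53 in cortex (rho 0.59, permutation p 0.0136) and 0.57 in hypothalamus (rho 0.36, permutation p 0.016). The latter fell to 0.16 without the 2 mice farthest from the median, and Creld2 behaved alike in hypothalamus (r = 0.52, rho 0.25, permutation p 0.0287, and 0.31 without 2 mice). Hsp90b1 A_52_P624149 in cortex gave 0.36 (permutation p 0.14) and 0.59 with scan day removed. Pdia4 gave 0.37 and 0.36 in the 2 tissues, Sdf2l1 0.31 and 0.03 and Canx A_52_P337679 0.14 and 0.36. Summed cell type markers correlated with Hspa5 as well. In hypothalamus r was -0.56 for choroid plexus markers. In cortex it was -0.46 for hypothalamus markers and -0.415 for immune and blood markers. The other sums lay between -0.36 and 0.24, and the part of cell types in these correlations was not tested.

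Pair by pair, with 1 probe per gene, most chaperones had a positive r with each other. The median r over the 45 pairs was 0.37 in cortex, with 42 pairs above 0. In hypothalamus the median was 0.31, with 36 pairs above 0. With scan day removed the medians were 0.42 and 0.36, but without the 3 arrays that stood apart the hypothalamus median was 0.22, with 31 pairs above 0. Over all pairs of probes the median was 0.01 in each tissue. The chaperone median was exceeded by 15.2% of all pairs in cortex and by 21.8% in hypothalamus. Without the 3 arrays it was exceeded by 31.2% of all pairs in hypothalamus. Among the secreted and co-chaperone genes, Sdf2l1 and Creld2 correlated at 0.78 in cortex and 0.57 in hypothalamus, Sdf2l1 and Manf at 0.74 and 0.47, Manf and Creld2 at 0.69 and 0.76, and Dnajb11 and Creld2 at 0.61 and 0.73. Other pairs were as high, such as Hsp90b1 and Canx in cortex (0.63) and Pdia4 with Sdf2l1 in cortex (0.64) and with Dnajb11 in hypothalamus (0.68). Calr and Canx, the lectin pair, had an r of -0.30 in cortex and -0.56 in hypothalamus. In hypothalamus without the 3 arrays that stood apart r was -0.27 for Calr and Canx, -0.04 for Sdf2l1 and Manf, 0.43 for Sdf2l1 and Creld2, 0.58 for Manf and Creld2, 0.84 for Dnajb11 and Creld2, 0.37 for Pdia4 and Dnajb11 and 0.87 for Hspa5 and Pdia6. The points of these correlations share mice, arrays and scan days, and they are given as a description.

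**Figure D5:**
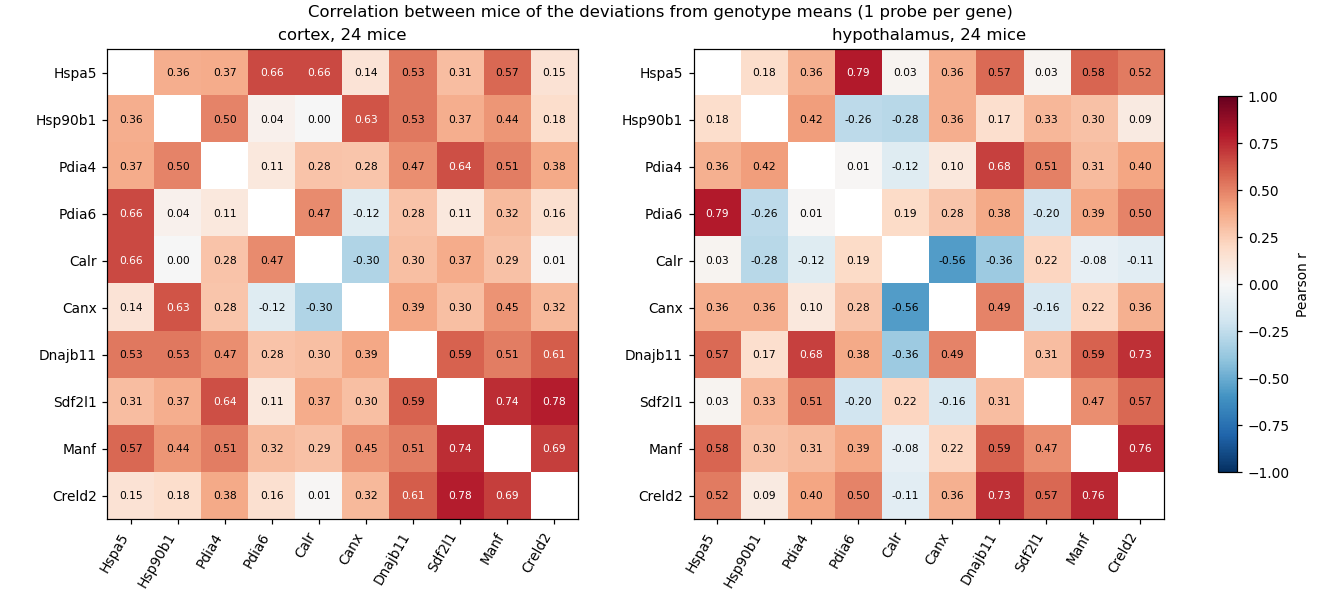
Pearson r between the levels of the 10 chaperone genes across 24 mice (1 probe per gene, deviations from genotype means) in cortex and in hypothalamus, with a colour scale from -1 to 1 and r printed in each cell. All 24 mice are shown, and Hspa5 with Pdia6 (0.66 and 0.79) and Manf with Creld2 (0.69 and 0.76) are high in both tissues, while Sdf2l1 with Manf in hypothalamus (0.47) was -0.04 without the 3 arrays that stood apart.

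The chaperones and the probes without a symbol were left out of the next ranking, which gives the genes whose level followed Hspa5 most closely. In cortex they were Rbm8a (r = 0.84), Golph3 (0.83), C9orf72 (0.82), Tbpl1 (0.81), Ankrd34b (0.80), Arpc5 (0.79), Mak16 (0.79) and Strap (0.77), over 24 mice. In hypothalamus they were Tigd2 and Acadsb (0.87 each), Zfp184 (0.86), Txndc15, Mrps6 and Tmem109 (0.84 each) and Rpusd4 and St8sia4 (0.83 each). Of the cortex genes 7 of 8 had a positive r in hypothalamus too, from 0.44 for Golph3 to 0.76 for C9orf72, and Ankrd34b had -0.32. Of the hypothalamus genes 6 of 8 had an r between 0.35 (Tmem109) and 0.68 (Mrps6) in cortex, and Zfp184 and St8sia4 had 0.01 and -0.07.

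Mice that were high in 1 tissue were not clearly high in the other. The r between cortex and hypothalamus across the 24 mice was 0.31 for Hspa5 (rho 0.37, permutation p 0.142, adjusted p 0.279 over 28918 probes) and 0.09 with scan day removed, against a median of 0.35 and 0.23 over all probes. Of the 16 relations 3 had an adjusted p under 0.05, beside 27.4% of all probes. These were Pdia6 A_52_P339495 (r = 0.64, rho 0.45, permutation p 0.0179, adjusted p 0.00921), Pdia6 A_51_P297968 (r = 0.58, rho 0.51, permutation p 0.0391, adjusted p 0.0245) and Hsp90b1 A_52_P590546 (r = 0.52, rho 0.30, permutation p 0.0379, adjusted p 0.046). With scan day removed they were 0.45, 0.28 and 0.47, and that of Hsp90b1 was 0.20 without the 2 mice farthest from the median. For Dnajb11 r was -0.11. Both tissues of a mouse were hybridised on the same slide, and the part of the slide in these values was not tested.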

How the data were processed

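RNA from 48 samples (24 mice, 2 tissues) had been hybridised to 1-colour Agilent whole-genome arrays, 4 to a slide. The authors deposited the scanner's processed signal intensity of each spot, background-subtracted by the scanner software, and a series table of log2 values after a 75th percentile shift, which was used as an alternative. By the scanner software's flags no spot was saturated on any array, and 48 to 172 outlier spots per array were left out. Here the log2 signal was set relative to the 75th percentile of its array, spots of a probe were averaged, and the filter kept probes that 6 or more of the 8 arrays of any group measured well above background. The arrays' number limits the precision. Genes were named through RefSeq accessions, with a symbol for 67.2% of probes. The members and gene lists were chosen with earlier results of these data known. Named beside the members were the 2 called genes per list with the largest difference, read at the brightest tested probe. Also named were the 8 genes most like Hspa5 per tissue, each at the probe picked by its r.

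Groups came from the sample labels, and the labels tie both tissues to a mouse. limma 3.58.1 in R 4.3.3 was fitted over all probes with Benjamini-Hochberg adjustment and a call at an adjusted p under 0.05, with genotype means within a tissue, with mouse as a block between tissues, and with the Hspa5 level as a covariate. The scripts were tested on simulated data. Correlations used permutation tests in Python 3.11.15 with scipy 1.17.1. The study's methods combined the methods' t-test with a rank product, which was not run here. Promoters came from RefSeq (GRCm38.p6), while the array was annotated on another build, and the promoter of Manf is not analysed here. Alternatives were array centring on the median, quantile normalization, normexp background correction with an offset of 50, other filters, scan day, slide and replicate number as blocks, 1 scan day alone, the methods' t-test, the series table and libraries left out.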

Additional observations from a re-analysis of the deposited data

Results flagged for a closer look

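In 8 of 96 groups of 8 arrays the highest or lowest value of a chaperone probe lay far from the others, with a gap to its nearest neighbour past the 95% level of Dixon's test. Chance alone gives such a gap in about 5% of groups. Of these values 5 belonged to WT hypothalamus replicate 3. It was lowest at both Calr probes (2.95 at A_51_P416419, next 3.57, and -1.11 at A_52_P672212, next -0.09) and at Canx A_52_P496596 (3.32, next 3.82), and highest at Canx A_52_P337679 (5.87, next 5.50) and Dnajb11 (2.82, next 2.33). WT hypothalamus replicate 8, the array with the most pituitary transcripts, was highest at Sdf2l1 (1.07, next 0.32). Per3 4/4 replicate 6 was highest at Hsp90b1 A_52_P590546 in cortex (4.62, next 4.40) and at Canx A_52_P496596 in hypothalamus (4.10, next 3.76).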

How the results depend on the processing

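Of 698 recomputed values of the 60 called log2 differences 0 changed sign and 144 lost the call. Of 167 counts of called probes 130 stayed within 1.5 times. These 130 include the counts of 0 for the interaction and between the knock-ins, where few or no probes of the array were called. The counts that moved were all of a knock-in against WT or of slopes on Hspa5, as follows. With slide fixed 0 probes of the whole array were called in any of these comparisons, and within 1 scan day 1 and 164 in cortex and 1 and 5 in hypothalamus (Per3 5/5 first), so that their counts of 0 are not particular to the chaperones. Per3 5/5 against WT in cortex (2 probes) gave 1 when blocked on scan day, 0 when slide was a fixed block and 0 within 1 scan day. Per3 4/4 against WT in cortex (5) gave 8 with normexp, 1 with scan day, 0 with slide fixed, 3 with the replicate number as a block and 0 within 1 day. Per3 5/5 against WT in hypothalamus (6) gave 0 with normexp, 2 without a filter, 0 with scan day, 0 with slide fixed, 1 with slide random, 3 without WT replicate 3, 3 without Per3 5/5 replicate 8, 3 without all 3 arrays, 0 within 1 day and 1 by the methods' t-test. Per3 4/4 against WT in hypothalamus (5) gave 3 with quantile normalization, 1 with normexp, 2 without a filter, 0 with scan day, 0 with slide fixed, 3 with slide random, 3 with the replicate block, 1 without WT replicate 3, 3 without WT replicate 8, 1 without all 3 arrays and 0 within 1 day. Slopes on Hspa5 gave 12, 0, 2, 0 and 0 in cortex (1) with median centring, quantile normalization, normexp, scan day and without 2 mice, and 8, 1 and 1 in hypothalamus (2) with median centring, scan day and without 2 mice. With median centring 9646 of 29714 and 9088 of 30734 other probes had a slope called too, and with normexp 1122 of 29714 in cortex. Normexp moved the median of all probes to 0.23 in Per3 4/4 and 0.15 in Per3 5/5 cortex and to 0.16 in Per3 4/4 hypothalamus, and the cause of the moved counts was not tested.

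Deviations of same-numbered mice of different genotypes correlated between -0.42 and 0.52, and between 0.03 and 0.34 for Per3 5/5 with WT in hypothalamus. Replicates 1 to 4 of Per3 5/5 and Per3 4/4 shared slide and scan day by number. The labels do not say that the numbers pair genotypes, and the replicate block is given only here. Leaving out the mouse block gave 9, 12 and 15 tissue calls (Per3 5/5, Per3 4/4 and WT). The alternatives that leave out libraries were chosen after seeing the data. All 16 probes passed the filter on signal over background.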
